A study of Homo sapiens with 4 samples.

Results

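The let-7 family was examined as 9 mature guide strands, hsa-let-7a-5p, hsa-let-7b-5p, hsa-let-7c-5p, hsa-let-7d-5p, hsa-let-7e-5p, hsa-let-7f-5p, hsa-let-7g-5p, hsa-let-7i-5p and hsa-miR-98-5p, written without the species prefix below. They were chosen by name and by no rule on their values, though with earlier results of these data known. The choice was from 1474 miRNAs listed in at least 1 library, and all 9 had counts in every library. Small RNA was sequenced from 2 parental human lines of colorectal cancer cells, HCT116 and RKO, and from their acquired radioresistant derivatives HCT116-R and RKO-R. HCT116-R and RKO-R had been made by repeated X-ray doses of 4 Gy that summed to 40 Gy, and then grew unirradiated for 3 weeks or more. There was 1 library per line, so no comparison had a replicate, and each radioresistant line is a single derivative of its parent. The parental lines received no such course of doses, and the labels name no genetic change in any line.

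let-7 miRNAs are among the most conserved miRNAs of animals. A guide strand is cut from 1 arm of a short RNA hairpin, is loaded into an Argonaute protein and pairs through its seed, bases 2 to 8, with messenger RNAs that are then repressed. The family is known for being low in stem cells, where the protein LIN28 blocks its maturation, and high in differentiated tissue. Textbook targets include RAS genes, HMGA2 and MYC, and the family is commonly described as tumor suppressive in the colon.

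The mature sequences are shown because every member carries the same seed and differs from the others by few bases, which bears on how reads can be told apart. They were taken from RefSeq (GRCh38.p14) and are written 5′ to 3′ with the seed, bases 2 to 8, in capitals.
let-7a-5p: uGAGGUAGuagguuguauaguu
let-7b-5p: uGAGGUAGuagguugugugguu
let-7c-5p: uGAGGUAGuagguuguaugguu
let-7d-5p: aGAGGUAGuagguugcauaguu
let-7e-5p: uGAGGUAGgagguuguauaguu
let-7f-5p: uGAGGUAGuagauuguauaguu
let-7g-5p: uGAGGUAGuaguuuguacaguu
let-7i-5p: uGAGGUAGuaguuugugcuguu
miR-98-5p: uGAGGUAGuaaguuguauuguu

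All 9 are 22 bases long, 14 positions are shared by all of them and 8 positions vary. Counted from 1 at the 5′ end, with the base of let-7a-5p first, let-7c-5p differs from let-7a-5p by A19G alone, let-7e-5p by U9G alone and let-7f-5p by G12A alone. let-7b-5p differs by A17G and A19G, so a single base separates it from let-7c-5p. let-7d-5p (U1A, U16C), let-7g-5p (G12U, U18C) and miR-98-5p (G11A, A19U) each differ from let-7a-5p at 2 positions. let-7i-5p is the most distant, with G12U, A17G, U18C and A19U. let-7a, let-7b, let-7c, let-7e and let-7f thus form a group of 5 linked by single-base differences, and a read with 1 sequencing error could be assigned to the wrong member of it. How the authors assigned such reads, and whether reads with the same molecular identifier were collapsed, is not given in the sources used here. Only 2 other miRNAs of the sequence table share the seed, miR-4458 and miR-4500, and both had 0 counts in all 4 libraries, which allows up to 0.44 CPM (counts per 1000000 miRNA counts of the library) at a limit of 3 counts.

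The 9 guide strands come from 12 hairpins on 8 chromosomes of GRCh38, which is the build hg38 of the submitters' processing notes. let-7a-5p is made from 3 of them and let-7f-5p from 2, while each other member has a single hairpin. By GENCODE release 29, MIRLET7I, at chr12:62603686-62603769 (plus strand), lies within an intron of AC048341.1, a lincRNA gene, and opposite an exon of LINC01465. MIRLET7A1, MIRLET7F1 and MIRLET7D lie within a few kilobases of each other on chromosome 9 in an intron of the lincRNA AL158152.2. MIRLET7A3 and MIRLET7B lie 863 bases apart on chromosome 22 in an exon of the let-7b host gene MIRLET7BHG. MIR98 and MIRLET7F2 lie 850 bases apart on chromosome X in an intron of HUWE1, a ubiquitin ligase gene, and MIRLET7G lies on chromosome 3 in an intron of WDR82. The remaining hairpins sit beside members of the miR-99/100 and miR-125 families, with MIRLET7A2 in an intron of MIR100HG on chromosome 11, MIRLET7C in an intron of MIR99AHG on chromosome 21 and MIRLET7E in an intron of SPACA6 on chromosome 19. No family hairpin has an annotated hairpin on its opposite strand, as 70 of all 1562 hairpins do.

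3 hairpins are shown as examples, those of let-7i and let-7c, whose guides were called below, and MIRLET7A2, whose passenger arm was. Other guides (let-7d-5p, let-7f-5p) and passenger arms (let-7e-3p, let-7g-3p, let-7i-3p) were also called in some comparison. The 3 hairpins are written with both mature arms in capitals, the guide arm first, so that the arms compared later can be placed. They are RefSeq sequences of GRCh38.p14, 5′ to 3′, at chr12:62603686-62603769 on the plus strand, chr11:122146522-122146593 on the minus strand and chr21:16539828-16539911 on the plus strand.
MIRLET7I: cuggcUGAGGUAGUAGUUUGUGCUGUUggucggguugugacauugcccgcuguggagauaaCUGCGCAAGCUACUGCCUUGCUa
MIRLET7A2: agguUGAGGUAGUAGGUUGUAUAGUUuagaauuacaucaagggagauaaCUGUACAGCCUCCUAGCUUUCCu
MIRLET7C: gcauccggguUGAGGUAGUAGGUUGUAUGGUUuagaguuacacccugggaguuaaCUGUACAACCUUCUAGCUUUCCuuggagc

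All 3 hold GGAG between their arms. GGAG, the tetramer that LIN28 is known to bind in let-7 loops, was searched on the RNA strand alone and was found in 9 of the 12 family hairpins, outside the arms in each. It was not found in MIRLET7A3, MIRLET7B or MIR98. The tetramer was found in 43.4% of all 1562 hairpins of the table, whose lengths vary, and a match is a description of letters only.

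The 4 libraries were of similar depth, with 6818497 to 7140460 miRNA counts and 992 to 1198 miRNAs listed. Of 9 epithelial and colorectal marker miRNAs, 8 or 9 were listed in each library, and miR-215-5p had 0 counts in all but HCT116-R, where it had 3. Their summed level was 63649 CPM (HCT116), 59230 (HCT116-R), 10538 (RKO) and 12242 (RKO-R). miR-200c-3p, which marks epithelial cells, had counts of 291469 (HCT116) and 286432 (HCT116-R) but of 649 (RKO) and 1426 (RKO-R). In the same order miR-141-3p had 6630, 8320, 17 and 41, and miR-429 had 108375, 86721, 51772 and 61087. The others showed no such gap. Their counts were 14416, 11355, 13138 and 10963 (miR-200a-3p), 6520, 4529, 4401 and 4325 (miR-200b-3p) and 4580, 4677, 3158 and 3728 (miR-203a-3p). miR-192-5p had 1542, 1379, 1574 and 2236, and miR-194-5p 762, 444, 537 and 824. Of 4 leukocyte markers 3 or 4 were listed, summing to 7.81 to 19.8 CPM, with miR-142-5p at 0 in both RKO libraries. Of 3 erythroid markers 2 or 3 were listed, at 4.77 to 29.6 CPM, and of 5 stromal and muscle markers 4 or 5, at 8.54 (RKO) to 328 CPM (HCT116). miR-126-3p, the single endothelial marker, was at 3949, 3452, 8331 and 8018 CPM in HCT116, HCT116-R, RKO and RKO-R, and so was higher in both RKO libraries. The part of these differences between the lines in the family's levels was not tested.

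The family took a share of the RKO libraries more than double that of the HCT116 libraries, and most of the difference was let-7i-5p. The 9 members together held 12.3% (HCT116), 12.6% (HCT116-R), 26.4% (RKO) and 30.7% (RKO-R) of all counts. The 95% Wilson intervals of these shares are within 0.1 percentage points, but they cover counting error only. Without let-7i-5p the other 8 members held 10.2%, 9.31%, 10.7% and 13.2%. The family level in RKO was thus 2.15 times that in HCT116 with let-7i-5p and 1.05 times without it, by library totals. Between the radioresistant lines the ratios were 2.43 and 1.41. let-7i-5p made up 136121 of the 141102 CPM by which the family was higher in RKO than in HCT116 (96.5%), and 142351 of the 180770 CPM between RKO-R and HCT116-R (78.7%). In bulk libraries of a line, a miRNA present in fewer cells and a miRNA at a lower level in each cell cannot be told apart.

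**Figure D1:**
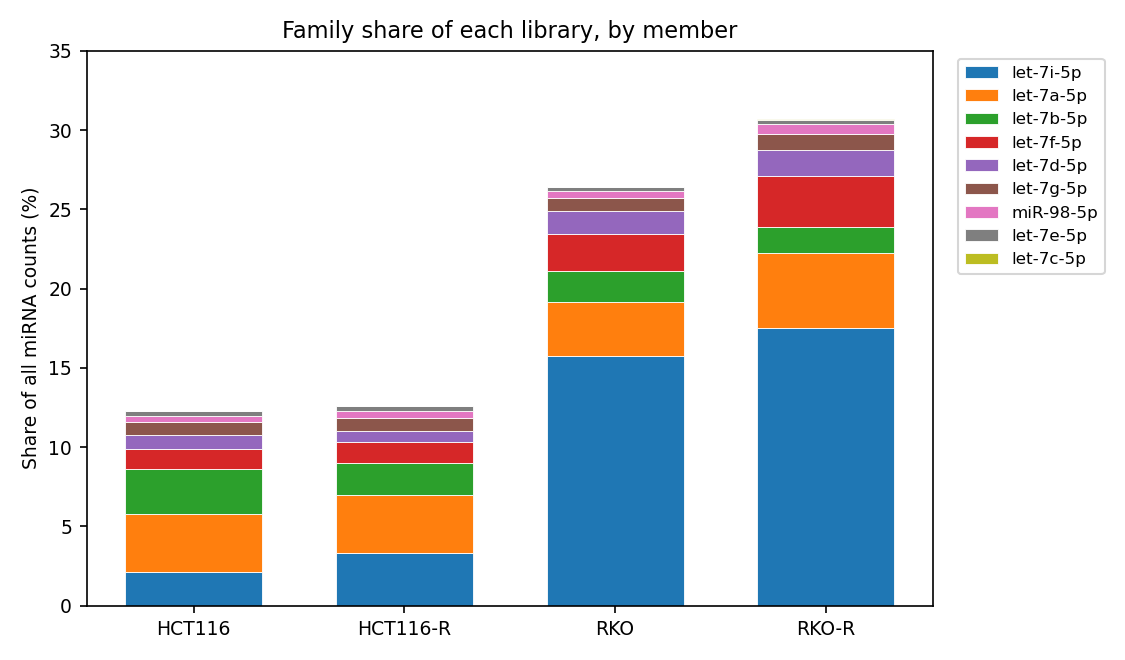
Share of all miRNA counts, in percent, held by the let-7 and miR-98 guide strands in each of the 4 libraries, with 1 stacked segment per member. The stacks reach 12.3% (HCT116), 12.6% (HCT116-R), 26.4% (RKO) and 30.7% (RKO-R), and the let-7i-5p segment at the base accounts for most of the difference.

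let-7i-5p was the most abundant miRNA of both RKO libraries and ranked 12 in HCT116 and 9 in HCT116-R. HCT116 held 145052 counts of it, HCT116-R 224487, RKO 1123761 and RKO-R 1211694, or 21259, 32923, 157379 and 175274 CPM. Both RKO libraries lay above both HCT116 libraries, and within each cell line the radioresistant library lay above the parental one. How many of all miRNAs showed such orders was not counted. It was 17.3% (HCT116), 26.1% (HCT116-R), 59.6% (RKO) and 57.1% (RKO-R) of the family sum. There were 0.582 (HCT116) and 0.888 (HCT116-R) let-7i-5p counts for each let-7a-5p count, against 4.57 (RKO) and 3.73 (RKO-R). This ratio is taken within a library and does not depend on the scaling between libraries.

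let-7a-5p, the member with the most hairpins, led the family in the HCT116 libraries. Its level was 36509 CPM (HCT116), 37088 (HCT116-R), 34452 (RKO) and 47000 (RKO-R). It was nearly level in the first 3 libraries and highest in RKO-R. It took the second place after let-7i-5p in the RKO libraries, at 13.1% and 15.3% of the family against 29.7% and 29.4% in the HCT116 libraries.

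let-7b-5p had its highest level in HCT116. It stood at 28202 CPM there, against 20162 (HCT116-R), 18949 (RKO) and 16318 (RKO-R). Each radioresistant library was lower than its parental library on this scale, and the share of the family went from 23% in HCT116 to 16% in HCT116-R and from 7.18% in RKO to 5.32% in RKO-R.

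let-7f-5p and let-7d-5p, which share the chromosome 9 cluster, were both higher in the RKO libraries. let-7f-5p was at 12728, 13354, 23525 and 32128 CPM in HCT116, HCT116-R, RKO and RKO-R. let-7d-5p, the member that starts with A, was at 8674, 6833, 14503 and 16649 CPM in the same order. For both members both RKO libraries lay above both HCT116 libraries, an order whose share over all miRNAs was not counted. let-7f-5p had 1.47 to 1.95 counts for each let-7d-5p count across the 4 libraries. MIRLET7F2 on chromosome X also makes let-7f-5p, so its counts cannot be assigned to the cluster alone. The passenger arm of the let-7d hairpin, let-7d-3p, did not share that order. It was at 3392 (HCT116), 3370 (HCT116-R), 4173 (RKO) and 2890 CPM (RKO-R), lowest where let-7d-5p was highest.

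let-7e-5p and let-7g-5p had the narrowest ranges of the family, and miR-98-5p differed mainly in RKO-R. let-7g-5p was at 8376, 8138, 8437 and 10278 CPM, miR-98-5p at 4138, 4590, 4233 and 6124 CPM, and let-7e-5p at 2959, 2888, 2444 and 2852 CPM in HCT116, HCT116-R, RKO and RKO-R. For let-7g-5p and miR-98-5p the RKO-R library was the highest. For let-7e-5p both RKO libraries lay below both HCT116 libraries, RKO-R only slightly.

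let-7c-5p was by far the rarest member. HCT116 held 226 counts of it, HCT116-R 430, RKO 414 and RKO-R 1282, which is 33.1, 63.1, 58 and 185 CPM with 95% Wilson intervals of 29.1 to 37.7, 57.4 to 69.3, 52.7 to 63.8 and 176 to 196. RKO-R was the highest and HCT116 the lowest. For each 1000 let-7a-5p counts there were 0.907 let-7c-5p counts (HCT116), 1.7 (HCT116-R), 1.68 (RKO) and 3.95 (RKO-R). For each 1000 let-7b-5p counts there were 1.17, 3.13, 3.06 and 11.4. Both of these members differ from let-7c-5p by a single base and were far more abundant, so a small share of misread bases could add to the let-7c-5p counts. The part of such reads was not tested, since the count tables hold no reads.

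**Figure D2:**
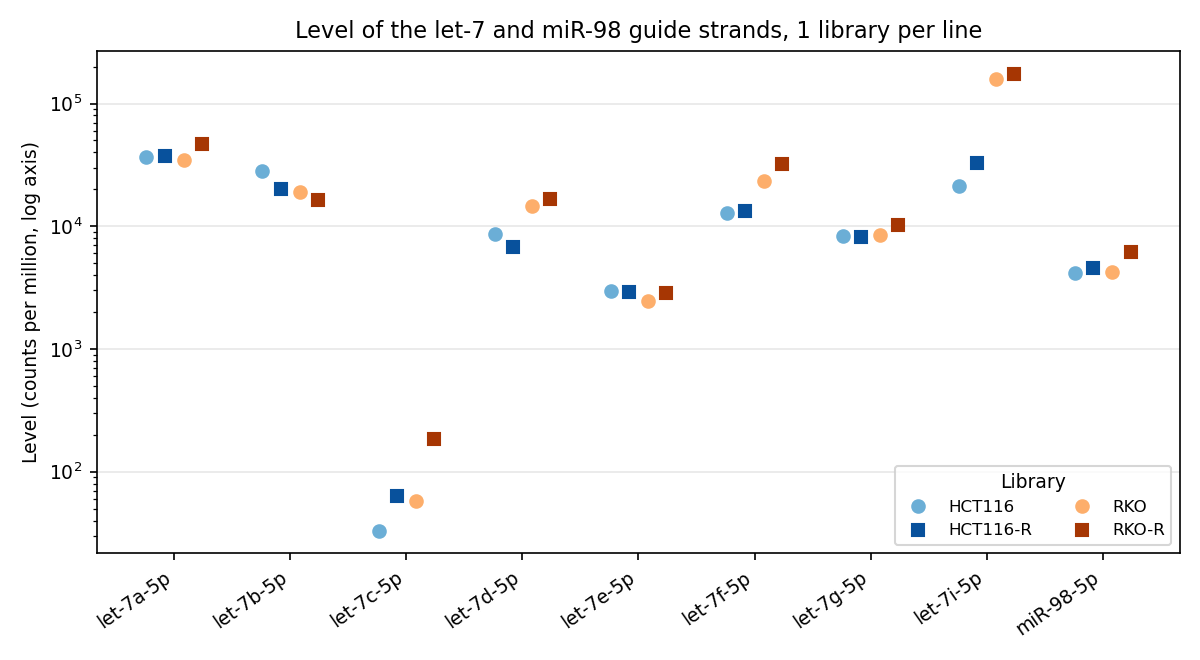
Level of each of the 9 guide strands in CPM (log axis) in HCT116, HCT116-R, RKO and RKO-R, with 1 point per library (circles parental, squares radioresistant) and no error bars, since each line had 1 library. let-7i-5p stands at 157379 (RKO) and 175274 CPM (RKO-R) against 21259 (HCT116) and 32923 CPM (HCT116-R), and let-7c-5p lies below 200 CPM in all 4.

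Ordered by level, let-7a-5p, let-7b-5p and let-7i-5p came first in HCT116, and let-7i-5p, let-7a-5p and let-7f-5p in both RKO libraries. miR-98-5p, let-7e-5p and let-7c-5p were the 7th, 8th and 9th in all 4 libraries. With an assumed biological coefficient of variation (BCV, the relative spread between replicates) of 0.2, the value named in the study's methods, 6 of the 8 pairs of neighbours in the HCT116 order lay within 1.96 standard errors of each other. The same held for 7 (HCT116-R), 5 (RKO) and 4 (RKO-R) of the 8 pairs in the other orders. let-7e-5p stood apart from let-7c-5p in all 4 libraries, let-7i-5p from let-7a-5p in both RKO libraries, and let-7g-5p from miR-98-5p in HCT116 and RKO. In RKO-R let-7f-5p also stood apart from let-7d-5p and miR-98-5p from let-7e-5p. Ligation of adapters differs between sequences, so levels of different miRNAs in a library are a coarser comparison than levels of the same miRNA between libraries.

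The exact test of edgeR, with that BCV of 0.2, set the radioresistant libraries against their parental ones. Because the spread was assumed and not measured, this test compares the libraries and not the conditions, and a called difference has no replicate check. Log2 fold changes are on the scale of TMM (trimmed mean of M-values) factors. For the RKO pair TMM moved all fold changes up by 0.24 against library totals, and for the radioresistant lines by 0.33. The shift was -0.02 for the HCT116 pair and -0.13 for the parental lines.

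In the HCT116 pair no member was called, against 4.01% of all 1322 miRNAs tested (edgeR exact test, Benjamini-Hochberg adjusted p under 0.05), and 1 member had an unadjusted p under 0.05. Of the 318 miRNAs that reached 100 counts in either library, 32 were called. The log2 fold changes of HCT116-R over HCT116 ranged from -0.51 for let-7b-5p to 0.91 for let-7c-5p, with 5 above 0 and 4 below, and a median of 0.00 against -0.18 for the 318 miRNAs that reached 100 counts in either library. The value of let-7c-5p was 0.91 (SE 0.42, edgeR adjusted p = 0.379) and that of let-7i-5p 0.61 (SE 0.41, adjusted p = 0.703). No member reached a log2 fold change of 1 in size, as 15.4% of the 318 more abundant miRNAs and 46% of all tested did. The family sum was 1.03 times higher in HCT116-R by library totals, with differences of 11665 CPM in let-7i-5p and of -8040 CPM in let-7b-5p.

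In the RKO pair let-7c-5p rose, as the only member called (5.54% of all 1155 miRNAs tested were called, and 43 of the 272 that reached 100 counts in either library). From 58 CPM in RKO and 185 CPM in RKO-R, its log2 fold change was 1.91 (SE 0.42, edgeR exact test, adjusted p = 5.1e-04). The fold changes of the other 8 members lay between 0.02 for let-7b-5p and 0.77 for miR-98-5p, and none of the 8 passed the test. All 9 were above 0, but with library totals in place of TMM let-7b-5p was at -0.22 and 8 of 9 were above 0. The median over the members was 0.52, against 0.02 for the 272 miRNAs that reached 100 counts in either library, and with library totals 0.28 against -0.22. let-7c-5p was also the only member past a log2 fold change of 1, as 20.6% of those 272 miRNAs and 50.4% of all tested were. Over all miRNAs the calls split into 29 higher and 35 lower with TMM and 20 higher and 54 lower with library totals. The call of let-7c-5p was lost with a BCV of 0.4 (adjusted p = 0.724), and it rests on few counts beside those of its near-identical members. When the group of 5 linked by single-base differences was summed, the sum stood at 0.54 on the log2 scale (SE 0.41, edgeR adjusted p = 0.771).

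The difference between the fold changes of both pairs was tested for each member in a fit with the same BCV, chosen after the values had been seen. No member was called (lowest adjusted p = 0.491, for let-7c-5p, and 0 at an unadjusted p under 0.05), against 4.75% of all 1474 miRNAs. The differences, RKO pair minus HCT116 pair, ranged from -0.25 for let-7i-5p to 0.97 for let-7c-5p. let-7c-5p being called in the RKO pair alone therefore does not show that the pairs differed.

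Both pairs were also fitted jointly, paired by cell line, in a fit of the 4 libraries by the quasi-likelihood test of edgeR that was added after the values had been seen. It had 1 residual degree of freedom and estimated its spread from how differently the lines responded. That spread was moderated, meaning drawn towards the spread of all miRNAs in the fit, so its p-values rest partly on the other miRNAs. No member was called and none had an unadjusted p under 0.05, against 0.669% of the 598 miRNAs that passed the filter on low counts. The log2 fold changes of radioresistant over parental libraries ranged from -0.27 for let-7b-5p to 1.38 for let-7c-5p (SE 0.58, adjusted p = 0.998), with a median of 0.31 against -0.05 over the 598.

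Of the members, let-7i-5p differed most between the parental lines. It was higher in RKO than in HCT116 and was the only member called, at 2.76 on the log2 scale (SE 0.41, edgeR exact test, adjusted p = 4.4e-09). Over all 1289 miRNAs tested 25.5% were called, and 170 of the 328 that reached 100 counts in either library. let-7f-5p followed with 0.76 (SE 0.41, adjusted p = 0.191), let-7c-5p with 0.68 (adjusted p = 0.293) and let-7d-5p with 0.62 (adjusted p = 0.331), while let-7b-5p stood at -0.70 (adjusted p = 0.243), and none of these passed. let-7i-5p was the single member with a log2 fold change of at least 1, as 54% of the 328 more abundant miRNAs and 69% of all tested had. The members' median was -0.09, against -0.26 for the 328.

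Between the radioresistant lines 4 of the 9 members were called, all higher in RKO-R than in HCT116-R. Over all 1333 miRNAs tested 23.2% were called, and 163 of the 311 that reached 100 counts in either library. let-7i-5p stood at 2.75 on the log2 scale (SE 0.41, edgeR exact test, adjusted p = 6.9e-09) and let-7c-5p at 1.89 (SE 0.42, adjusted p = 1.2e-04). let-7d-5p and let-7f-5p followed in the same exact test with 1.62 (adjusted p = 9.4e-04) and 1.60 (adjusted p = 0.00109). With a BCV of 0.4 the calls of let-7c-5p (adjusted p = 0.178), let-7d-5p (0.284) and let-7f-5p (0.296) were lost, and that of let-7i-5p was not. With the group of 5 summed, the sum that then held let-7c-5p and let-7f-5p was not called either (0.70, adjusted p = 0.272). The other 5 lay between 0.03 for let-7b-5p and 0.75 for miR-98-5p, and with library totals let-7b-5p was at -0.31 and let-7e-5p at -0.02. The same 4 were past a log2 fold change of 1, as 56.3% of the 311 more abundant miRNAs and 69.7% of all tested were. The members' median was 0.75 against 0.06 for the 311. This comparison and that of the parental lines share no library with each other, but each shares its libraries with the comparisons of the radioresistant pairs.

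**Figure D3:**
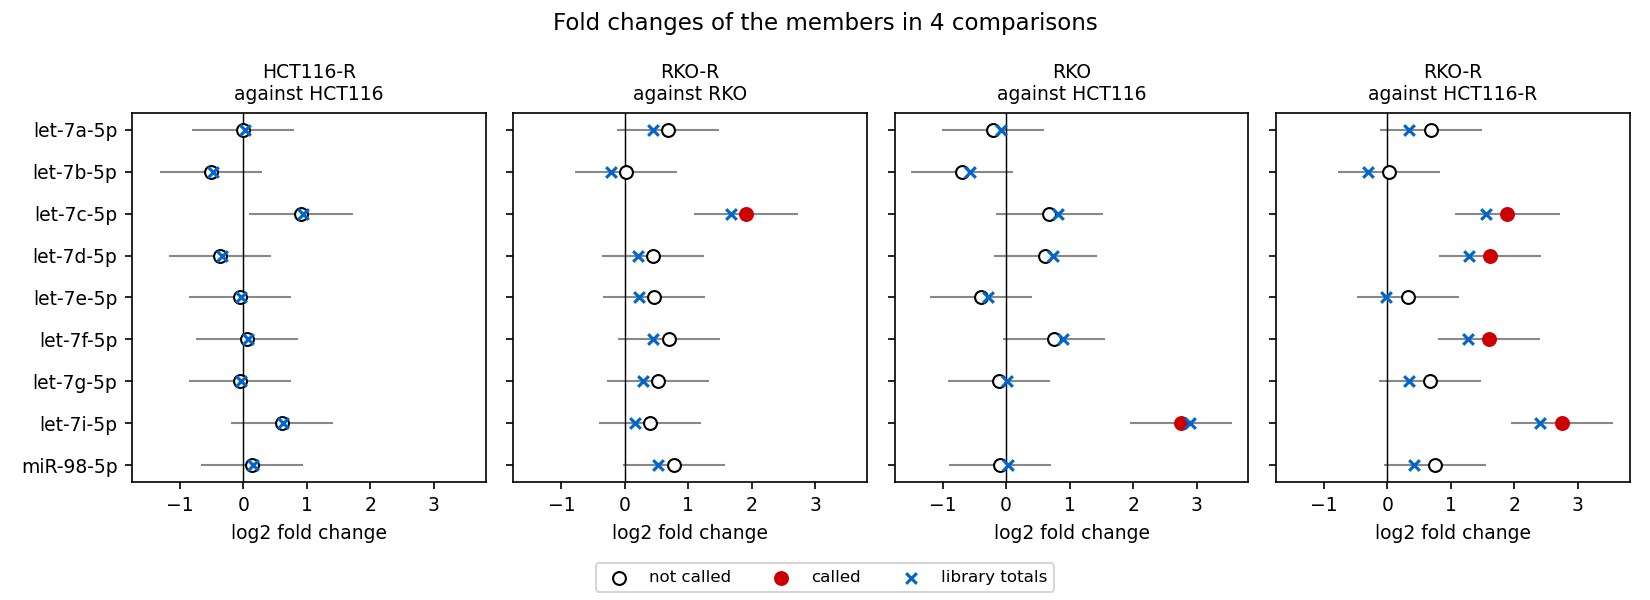
Log2 fold change of each member in the 4 comparisons, from edgeR with TMM and an assumed BCV of 0.2 (circles, red where the adjusted p was under 0.05), with bars of 1.96 standard errors from that assumed BCV, and from library totals (crosses). let-7i-5p lies near 2.76 in both comparisons of RKO with HCT116 lines, and let-7c-5p at 1.91 in RKO-R against RKO.

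The same fit of all 4 libraries, with terms for cell line and for radioresistance and an estimated BCV of 0.481, was read for the term of cell line. let-7i-5p was the only member called, at 2.75 on the log2 scale for RKO over HCT116 lines (SE 0.44, adjusted p = 0.00657), against 28.3% of the 598 miRNAs that passed the filter on low counts. let-7f-5p had 1.18 (SE 0.44, adjusted p = 0.103) and let-7d-5p 1.12 (SE 0.46, adjusted p = 0.128). The other members lay between -0.34 for let-7b-5p and 1.29 for let-7c-5p, and the median over the family was 0.33 against -0.19 over the 598. The libraries of a cell line are not replicates of each other, and the cell lines differ in many other ways, such as the level of miR-200c-3p given above.

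The opposite arms of the hairpins, the passenger strands, are usually degraded and were read here as another product of the same precursors. Of 11 passenger arms, 9 were listed in at least 1 library and 5 had at least 100 counts in some library. let-7b-3p and let-7c-3p had at most 1 count in any library, and let-7f-2-3p and miR-98-3p had none. let-7i-3p, whose single source is MIRLET7I, was also higher in the RKO lines. HCT116 held 712 counts of it, HCT116-R 549, RKO 1851 and RKO-R 2044. Its log2 fold change was 1.19 in RKO over HCT116 (SE 0.41, edgeR exact test, adjusted p = 0.0216) and 2.21 in RKO-R over HCT116-R (SE 0.41, adjusted p = 4.5e-06). In the fit of all 4 libraries it was 1.70 (SE 0.54, adjusted p = 0.0621), which did not pass.

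The guide let-7a-5p cannot be traced to any of its 3 hairpins, but its passenger arms can in part. let-7a-3p comes from MIRLET7A1 and MIRLET7A3, whereas let-7a-2-3p comes from MIRLET7A2 on chromosome 11 alone. let-7e-3p and let-7c-3p differ from let-7a-2-3p by only a few bases, and how reads of such arms were assigned is not given. let-7a-3p and let-7a-2-3p differ enough from each other to be told apart.
let-7a-3p: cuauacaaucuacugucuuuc
let-7a-2-3p: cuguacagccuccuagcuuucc

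let-7a-2-3p was lower in both RKO libraries. HCT116 held 891 counts of it, HCT116-R 842, RKO 133 and RKO-R 77. Its log2 fold change was -2.93 in RKO over HCT116 (SE 0.43, edgeR exact test, adjusted p = 2.3e-09) and -3.13 in RKO-R over HCT116-R (SE 0.44, adjusted p = 5.6e-10). In the fit of all 4 libraries it was -3.03 (SE 0.58, adjusted p = 0.0111). let-7a-3p, from the other hairpins, had 1109, 773, 777 and 778 counts in HCT116, HCT116-R, RKO and RKO-R and was not called in any comparison. There were 1.24 (HCT116) and 0.918 (HCT116-R) let-7a-3p counts for each let-7a-2-3p count, against 5.84 (RKO) and 10.1 (RKO-R). The guide let-7a-5p was thus nearly level between the parental lines while the passenger arm of 1 of its 3 hairpins was not.

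The miRNAs of neighbouring hairpins within MIR100HG were lower in RKO as well. miR-100-5p, made from a hairpin 5635 bases from MIRLET7A2, had 729548 counts (HCT116), 511895 (HCT116-R), 126185 (RKO) and 150489 (RKO-R). Its log2 fold change was -2.72 in RKO over HCT116 (SE 0.41, edgeR exact test, adjusted p = 7.1e-09) and -1.45 in RKO-R over HCT116-R (SE 0.41, adjusted p = 0.00335). miR-100-3p had 672, 610, 106 and 115 counts and miR-125b-1-3p, whose hairpin lies 46677 bases away, 2731, 2096, 397 and 182, and both were called lower in both comparisons. miR-125b-5p, which is also made from a hairpin on chromosome 21, had 8139, 8698, 2123 and 1197 counts and was called lower in both as well. Lower calls were common among miRNAs that reached 100 counts in either library. They made up 113 of 328 in RKO against HCT116 and 96 of 311 in RKO-R against HCT116-R. A shared cause at the locus was not tested.

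**Figure D4:**
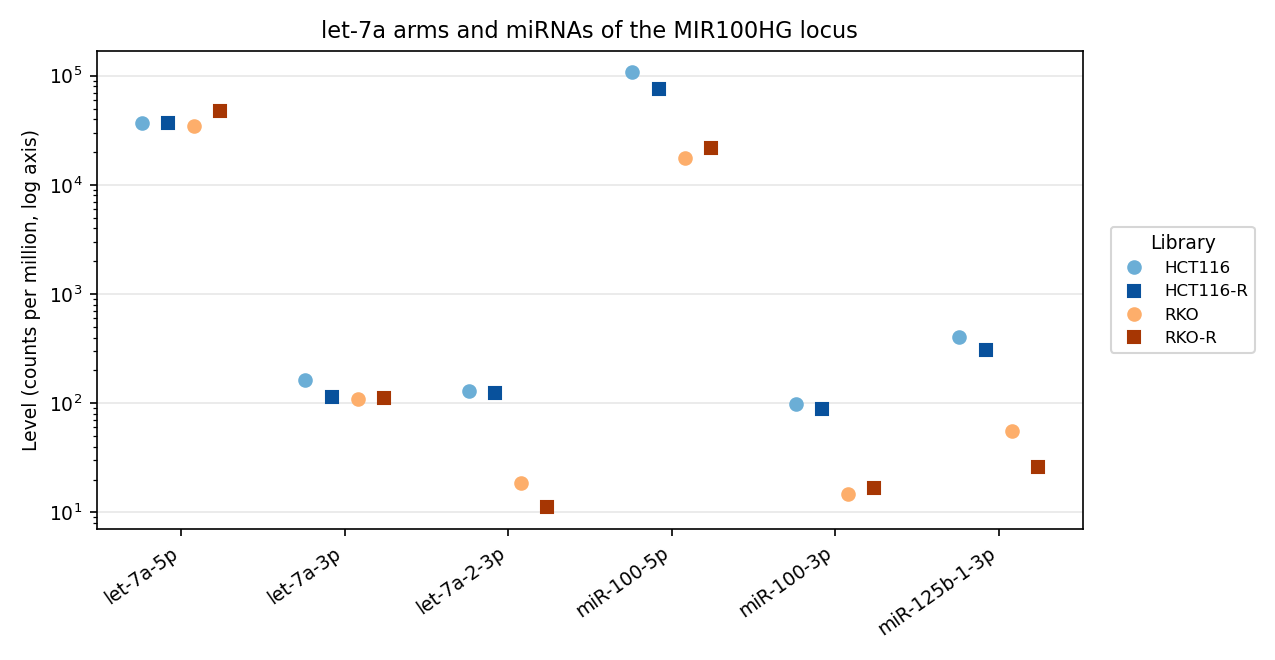
Level in CPM (log axis) of the let-7a guide, of its passenger arms and of 3 miRNAs from hairpins in MIR100HG, with 1 point per library and no error bars. let-7a-2-3p, miR-100-5p, miR-100-3p and miR-125b-1-3p lie well below the HCT116 libraries in both RKO libraries, while let-7a-3p is at nearly the same level in HCT116-R, RKO and RKO-R and let-7a-5p is highest in RKO-R.

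Beside MIRLET7C lies the hairpin of miR-99a, 658 bases away in the same intron. miR-99a-5p was higher in both RKO libraries than in both HCT116 libraries, at 558 counts (HCT116), 529 (HCT116-R), 1381 (RKO) and 1996 (RKO-R), whereas the libraries of the lines overlapped for let-7c-5p. Its log2 fold change was 1.12 in RKO over HCT116 (SE 0.41, edgeR exact test, adjusted p = 0.0353) and 2.23 in RKO-R over HCT116-R (SE 0.41, adjusted p = 3.7e-06). Within the RKO pair, where let-7c-5p was called, miR-99a-5p had 0.81 (SE 0.41, adjusted p = 0.39), and within the HCT116 pair -0.10 (SE 0.42).

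The let-7e locus showed another pattern. let-7e-5p was not called in any comparison, and its neighbours miR-99b-5p, miR-99b-3p, miR-125a-5p and miR-125a-3p were not called either. miR-99b-5p, the most abundant of them, had 128226, 119565, 88027 and 91144 counts in HCT116, HCT116-R, RKO and RKO-R. The passenger arm let-7e-3p, however, was lower in the RKO lines, with 1510, 1109, 531 and 217 counts. Its log2 fold change was -1.70 in RKO over HCT116 (SE 0.41, edgeR exact test, adjusted p = 5.1e-04), -2.04 in RKO-R over HCT116-R (SE 0.42, adjusted p = 3.6e-05) and -1.87 in the fit of all 4 libraries (SE 0.55, adjusted p = 0.0444). Within the RKO pair it was -1.01 (SE 0.42, adjusted p = 0.206), which did not pass.

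Counted over the lists, 0 passenger arms and 0 neighbours were called in either radioresistant pair by the edgeR exact test, with at most 1 of each list at an unadjusted p under 0.05, where 4.01% (HCT116 pair) and 5.54% (RKO pair) of all miRNAs tested were called. Of 8 passenger arms tested, 4 were called in RKO against HCT116, 1 higher and 3 lower, where 25.5% of all 1289 miRNAs were. The third of those lower was let-7g-3p with 40 and 9 counts, under the minimum of 100 counts set for naming an arm and named here after its value was seen. In RKO-R against HCT116-R 3 of 8 were called, 1 higher and 2 lower, where 23.2% of all were. The medians over the arms were -0.44 and -0.54 in these comparisons, against -0.18 and -0.59 over all miRNAs tested. Of the neighbours, 5 of 10 and 5 of 9 were called, 1 higher and 4 lower each time, with medians of -0.80 and -0.28. Calls over all miRNAs were also mostly lower, with 109 higher and 220 lower in RKO against HCT116. In RKO-R against HCT116-R they were 96 higher and 213 lower. Of the miRNAs that reached 100 counts in either library, 170 of 328 and 163 of 311 were called in these comparisons. Neither the arms nor the neighbours were thus called clearly more often than those more abundant miRNAs.

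The ratio of guide to passenger counts is taken within a library and so is free of the scaling between libraries. let-7d had the most passenger product, with 2.56 (HCT116), 2.03 (HCT116-R), 3.48 (RKO) and 5.76 (RKO-R) guide counts for each passenger count. The passenger arm let-7d-3p itself had 23144, 22977, 29794 and 19978 counts. For let-7e the ratio was 13.4, 17.8, 32.9 and 90.9 in the same order, higher in both radioresistant libraries than in their parents. For let-7i it was 204, 409, 607 and 593, so it was lowest in HCT116. For let-7a-5p over let-7a-3p it was 225, 327, 317 and 418, and over let-7a-2-3p 280, 300, 1850 and 4220. Both let-7a ratios were thus also higher in each radioresistant library than in its parent. With the assumed BCV of 0.2 in each arm, the log2 change of the let-7e ratio was 1.47 (SE 0.59) in RKO-R over RKO and 0.41 (SE 0.58) in HCT116-R over HCT116. The let-7i ratio changed by 1.01 (SE 0.58) in the HCT116 pair and by -0.03 (SE 0.58) in the RKO pair. In the same order, let-7a-5p over let-7a-3p changed by 0.54 and 0.40, and the let-7d ratio by -0.33 and 0.73 (SE 0.58 for each). These changes have no replicate check and were not tested across miRNAs.

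**Figure D5:**
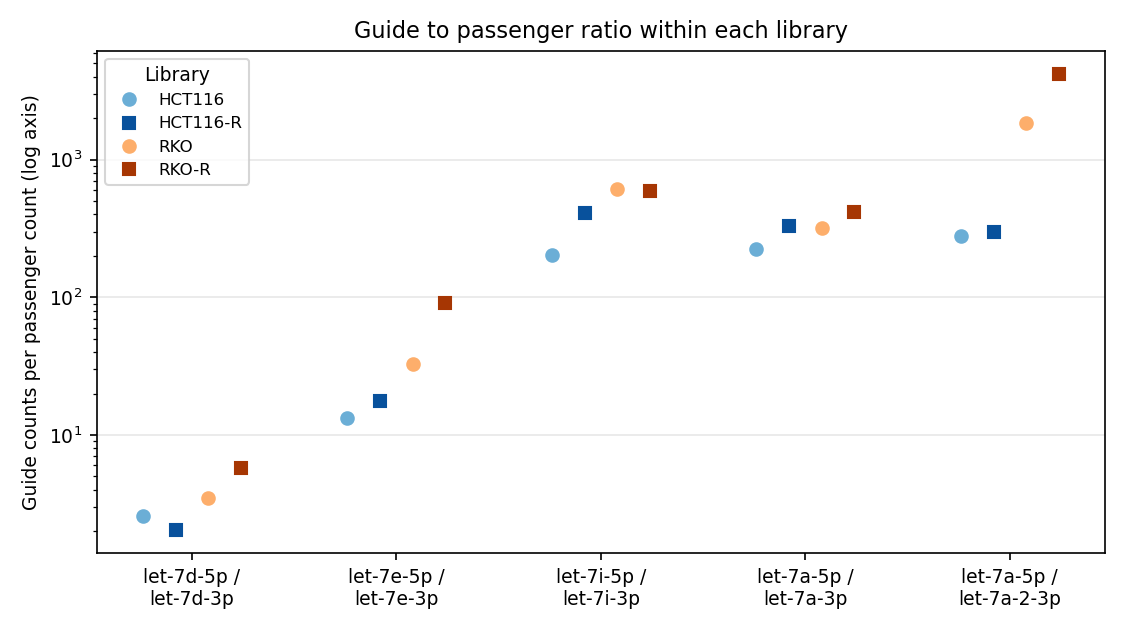
Guide counts per passenger count (log axis) for 5 guide and passenger pairs in each of the 4 libraries, with 1 point per library and no error bars. let-7d stays between 2.03 and 5.76, let-7e runs from 13.4 in HCT116 to 90.9 in RKO-R, and the let-7a guide over the arm of MIRLET7A2 is far higher in the RKO libraries.

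Among 98 miRNAs that are no member and had at least 1000 counts in every library, the 3 whose log2 CPM over the 4 libraries lay nearest to that of the family sum were miR-126-3p, miR-15b-5p and miR-10b-5p, at Euclidean distances of 0.26, 0.32 and 0.38. miR-15b-5p was at 878, 663, 1705 and 1880 CPM in HCT116, HCT116-R, RKO and RKO-R, and miR-10b-5p at 839, 637, 1861 and 1872 CPM. With 4 libraries this likeness describes little more than a higher level in both RKO libraries.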

How the data were processed

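Small RNA of 18 to 30 nt was sequenced on the BGISEQ-500 from HCT116, HCT116-R, RKO and RKO-R, with 1 library per line, grouped by the sample labels. The authors deposited raw counts per mature miRNA for each library. The submitters' processing notes name Bowtie2 and hg38. The annotation release, strand use, handling of multi-mapping reads and collapsing of molecular identifiers are not given in the sources used here, and each could move counts between near-identical members. Where a table did not list a miRNA, its count was set to 0.

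Counts were scaled to CPM by library totals (6818497 to 7140460). Shares have 95% Wilson intervals, which like the limit of 3 counts cover counting error only. Pairs of libraries were tested with the exact test of edgeR 4.0.16 (R 4.3.3), TMM and a BCV of 0.2, with p-values adjusted (Benjamini-Hochberg) across every miRNA counted in either library. Standard errors follow from the counts and that BCV. A joint fit of the 4 libraries used the quasi-likelihood test of edgeR after filterByExpr, with 1 residual degree of freedom and a spread moderated across miRNAs. Its standard errors were taken from the fold change and the test statistic. The joint fit gave the cell line term and the radioresistance term paired by cell line, and the latter was chosen with the values known. The difference between pairs was a contrast at a BCV of 0.2. Alternatives included BCVs of 0.1 and 0.4, other scalings, DESeq2 1.42.0, filters on low counts and sums of near-identical members. The exact test, the cell line term of the joint fit and the difference between pairs were first tested on data simulated at a BCV of 0.2. The alternatives and the paired radioresistance term were not. The simulated BCV lay under the 0.481 that the joint fit estimated here. The simulation of the cell line term also held no difference in response between the lines. It therefore does not show how that term performs at the spread of these data.

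All 9 members were named, as were passenger arms and neighbours that reached 100 counts in a library. These members and lists were chosen with earlier results of these data known. Mature and hairpin sequences came from RefSeq tables of GRCh38.p14, which matched 19 of 20 members and passenger arms, and genes from GENCODE release 29. Tables were handled in Python 3.11.15 (pandas 2.3.3, numpy 2.4.6), intervals came from scipy 1.17.1 and plots from matplotlib 3.10.9.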

Additional observations from a re-analysis of the deposited data

How the results depend on the processing

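The calls depend above all on the assumed spread, since 1 library per line gives none. With a BCV of 0.1 in place of 0.2, edgeR called 2 members for the HCT116 pair, 4 for the RKO pair, 5 in RKO against HCT116 and 7 in RKO-R against HCT116-R. With a BCV of 0.4 it called 0 members of the RKO pair and 1, let-7i-5p, in RKO-R against HCT116-R, and let-7c-5p in the RKO pair then had an adjusted p of 0.724. Over all miRNAs, BCVs of 0.1, 0.2 and 0.4 gave 154, 53 and 24 calls for the HCT116 pair, 148, 64 and 9 for the RKO pair, 420, 329 and 152 in RKO against HCT116 and 418, 309 and 140 in RKO-R against HCT116-R. With the 5 members linked by single bases summed, 0 were called in the RKO pair and 2 in RKO-R against HCT116-R, where fewer features are then tested. let-7i-5p kept its call between the cell lines under every alternative run.

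Scaling turned the sign of some small, uncalled values. With library totals let-7b-5p had -0.22 in the RKO pair and -0.31 in RKO-R against HCT116-R, let-7e-5p -0.02 there, and let-7g-5p 0.01 and miR-98-5p 0.03 in RKO against HCT116. With the size factors of DESeq2 let-7b-5p had -0.01 in the RKO pair, and let-7g-5p 0.00 and miR-98-5p 0.02 in RKO against HCT116. let-7b-5p had -0.21 in RKO-R against HCT116-R with TMM over all 4 libraries and -0.05 with a filter of 10 counts, which gave let-7a-5p -0.01 in the HCT116 pair. The DESeq2 Wald test gave let-7e-5p 0.05 between the cell lines. Of 304 member values under alternatives 276 kept their direction and call. The family's share without the 10 most abundant other miRNAs was 28.5% (HCT116), 30.2% (HCT116-R), 50% (RKO) and 54.8% (RKO-R), and with totals scaled by TMM 12.7% (HCT116-R), 24.2% (RKO) and 33.2% (RKO-R). Adding the passenger arms lowered a member's share of the family by at most 1 percentage point. No replicate could be left out, because each line had 1 library. Depth limited let-7c-5p and the rarer passenger arms more than the other members.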
